A study of Mus musculus with 24 samples.

Results

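The 38 genes described here encode enzymes of the citric acid cycle, of pyruvate entry into it and of mitochondrial fatty acid oxidation. They were listed by name, and all 38 were measured by a probe set that carries a single gene symbol, out of 19938 genes on the array. Where a gene had more than 1 such probe set, the brightest over all 24 arrays stood for it. Values are log2 expression, on which a difference of 1 is a doubling.

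Pyruvate dehydrogenase turns pyruvate into acetyl-CoA, which the citric acid cycle oxidises to CO2 in mitochondria while electrons pass to carriers of the respiratory chain. Fatty acids reach the same pool: the carnitine shuttle carries them across the inner mitochondrial membrane, and beta-oxidation shortens them stepwise, handing electrons to the electron transfer flavoprotein. The cycle also supplies building blocks to dividing cells, and early B cell precursors are among the most rapidly dividing cells of the marrow. In human precursor B cell leukaemia PAX5, a transcription factor that sets B cell identity, is known to restrict glucose uptake and energy supply.

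Mice with 1 Pax5 copy and the BCR/ABLp190 oncogene were set against mice with the oncogene alone and against wild-type mice, at overt leukaemia and before it. At overt disease the arrays were of tumour-bearing marrow from Sca1-BCR/ABLp190+Pax5+/- mice (n = 7, called Pax5+/- leukaemias), tumour-bearing marrow from Sca1-BCR/ABLp190 mice whose labels name no change in Pax5 (n = 2, called leukaemias with both copies), and B220+ B cells from marrow of WT mice (n = 5). The preleukaemic set held proB and preB cells of Sca1-BCR/ABLp190+Pax5+/- mice (n = 3, called Pax5+/- precursors), of Sca1-BCR/ABLp190 mice (n = 3, called precursors with both copies) and of WT mice (n = 4, where the series text counts 3 mice). The Sca1 promoter, as background, is active in blood stem and progenitor cells. No label gives an age or strain, all mice were kept in a conventional facility with exposure to common pathogens, and replicates are labelled biological, so p-values measure the spread between these samples alone.

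Each sample filled 1 Affymetrix array, and precision is limited by how many there were. No sort is named for the diseased marrow, where markers of non-B cells were high. B lineage markers averaged 8.58 to 10.55 on Pax5+/- leukaemia arrays and 8.32 to 8.82 in leukaemias with both copies, against 11.94 to 12.20 in B220+ cells, while all precursor groups lay between 11.51 and 11.74. By Xist and 3 Y-linked genes, all 3 precursors with both copies read as male, all 9 wild-type arrays as female, and the other groups mixed (3 female and 4 male Pax5+/- leukaemias, 1 of each among leukaemias with both copies, and 1 female and 2 male Pax5+/- precursors).

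The 38 genes are brighter than most. Their means over the 24 arrays ran from 6.78 for Pcx to 12.03 for Idh3g with a median of 9.29, where the median gene lay at 7.02, and 37 of the 38 were above it. Changes are therefore also set beside the 5492 genes whose mean fell between 8.42 and 10.85, the 10th and 90th percentiles of the 38, called genes of like brightness, which include 30 of the 38. Tests are limma with Benjamini-Hochberg adjustment over all 19938 genes, a gene is called at an adjusted p under 0.05, and errors of changes are SE. Of the 38, 30 were called in at least 1 of 11 comparisons, where 74.2% of all genes and 83.5% of genes of like brightness were. The 8 called in 0 were Pdha1, Pcx, Idh2, Cpt1a, Acads, Acadvl, Hadh and Eci1.

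The genes differed in how far they moved across the 6 groups. Group means of Idh2, mitochondrial isocitrate dehydrogenase 2, ranged over 10.57 to 10.76, those of Acadvl, the dehydrogenase of very long chains, over 8.01 to 8.22, and those of citrate synthase Cs over 10.99 to 11.23. Single leukaemia arrays of Idh2 were spread widely, however, over 10.10 to 11.24 in Pax5+/- leukaemias and at 10.10 and 11.40 in leukaemias with both copies. At the other end Idh3a, the catalytic subunit of isocitrate dehydrogenase 3, had group means from 8.60 in precursors with both copies to 10.13 in leukaemias with both copies. Decr1, the reductase needed for unsaturated fatty acids, ranged over 6.79 to 8.24, and Suclg2, the GTP-forming beta subunit of succinyl-CoA ligase, over 7.63 to 9.04. By its second probe set the group means of Suclg2 ranged over 7.38 to 8.70. For Idh3a the order of group means, from high to low, was leukaemias with both copies, Pax5+/- leukaemias, wild-type precursors, B220+ cells, Pax5+/- precursors and precursors with both copies. The neighbours in that order overlapped except between wild-type precursors and B220+ cells and between B220+ cells and Pax5+/- precursors.

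The first comparison asks how Pax5+/- leukaemias differ from normal marrow B cells. Of the 38 genes, 16 rose and 2 fell, where 12.9% of all genes rose and 18.9% fell, and 17.4% of genes of like brightness rose and 29.1% fell. The median change of the 38 was 0.26, beside -0.096 for genes of like brightness and -0.060 for all genes, and 31 of the 38 lay above the like-brightness median. In 7 of the 38 the groups did not overlap, where 20.1% of all genes and 31.8% of genes of like brightness did not. The genes that rose covered electron transfer, fatty acid oxidation and parts of the cycle, while citrate synthase Cs (-0.063 ± 0.089), malate dehydrogenase Mdh2 (-0.053 ± 0.070) and pyruvate dehydrogenase subunit Pdhb (-0.037 ± 0.094) did not pass.

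At the point of pyruvate entry, 1 of 5 genes rose. Dld, the lipoamide dehydrogenase shared by the pyruvate and 2-oxoglutarate dehydrogenase complexes, read 8.99 at the lowest, 9.27 at the median and 9.52 at the highest in Pax5+/- leukaemias, against 8.28, 8.72, 8.70, 8.92 and 8.80 in B220+ cells. The groups did not overlap, and Dld rose by 0.58 ± 0.11 or 1.5-fold (adjusted p = 0.00115). Pyruvate carboxylase Pcx, which makes oxaloacetate from pyruvate, read 6.43 at the lowest, 6.73 at the median and 8.56 at the highest in Pax5+/- leukaemias, against 6.60, 6.66, 6.36, 6.59 and 6.46 in B220+ cells. Its highest value, on array 7, stood far above the median, and the mean difference did not pass (0.50 ± 0.37, adjusted p = 0.311).

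Of 12 mitochondrial enzymes of the cycle, 4 rose and 2 fell. Idh3a read 9.88 at the lowest, 10.13 at the median and 10.34 at the highest in Pax5+/- leukaemias, against 9.15, 9.17, 9.17, 9.34 and 9.47 in B220+ cells. Every leukaemia array was above every B220+ array, a rise of 0.85 ± 0.094 or 1.8-fold (adjusted p = 3.13e-05). Its partner subunits did not share the direction: Idh3g, the gamma subunit, fell by 0.25 ± 0.074 (adjusted p = 0.023) and Idh3b, the beta subunit, had -0.11 ± 0.062 (adjusted p = 0.183). Idh3g was called in 7 of the 11 other settings that kept all arrays. The call was lost after quantile normalization, cyclic loess, a replicate block and centring on genes of like brightness. Idh3g lies on the X chromosome and the B220+ arrays were all female, and that part was not tested. The fumarase gene Fh1 rose by 0.46 ± 0.092 (adjusted p = 0.00208), and Dlst, the succinyltransferase core of 2-oxoglutarate dehydrogenase, by 0.36 ± 0.073 (adjusted p = 0.00256), both without overlap between the groups. Of the cytosolic isozymes, Aco1, which is also the iron regulatory protein 1, rose by 0.38 ± 0.090 (adjusted p = 0.00657).

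In fatty acid oxidation the carnitine shuttle had 0 of 3 genes called, and Cpt1a, its rate-setting acyltransferase, had 0.083 ± 0.16 (adjusted p = 0.705). Later steps held 7 of the 16 rises, 2 of 4 acyl-CoA dehydrogenases, 3 of 5 hydratases, dehydrogenases and thiolases, and 2 of 3 auxiliary enzymes. Decr1 read 7.58 at the lowest, 8.02 at the median and 8.26 at the highest in Pax5+/- leukaemias, against 6.96, 7.12, 6.89, 7.11 and 6.94 in B220+ cells. All 7 leukaemia arrays were above all 5 B220+ arrays, and Decr1 rose by 1.01 ± 0.11 or 2.02-fold (adjusted p = 3.62e-05), the largest change among the 38 in this comparison. Hydratase Echs1 (0.49 ± 0.13, adjusted p = 0.011), thiolase Acaa2 (0.42 ± 0.12, adjusted p = 0.0166), isomerase Eci2 (0.61 ± 0.18, adjusted p = 0.0223) and Hadhb, the thiolase subunit of the trifunctional protein (0.45 ± 0.13, adjusted p = 0.0229), rose with overlapping arrays. Hadha, the other subunit of that protein, had -0.19 ± 0.074 (adjusted p = 0.0695). RefSeq lists a Hadhb pseudogene, so signal of the gene and of that copy may not be separable, and a second probe set for Hadhb differed by 0.45 as well.

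All 3 genes of electron transfer from acyl-CoA dehydrogenases rose. Etfa and Etfdh each lost the call in 9 of 12 fits that left out 1 array of the groups compared, and Etfb in 0. Etfb, the beta subunit of the electron transfer flavoprotein, read 11.05 at the lowest, 11.23 at the median and 11.28 at the highest in Pax5+/- leukaemias, against 10.44, 10.33, 10.32, 10.53 and 10.56 in B220+ cells. The groups were well apart, and the rise of 0.76 ± 0.059 or 1.69-fold had the smallest adjusted p of the 38 (2e-06). The other 6 called genes were the acyl-CoA dehydrogenases Acadm and Acadl, Etfa, Etfdh, succinyl-CoA ligase Suclg1 and 2-oxoglutarate dehydrogenase Ogdh, with adjusted p from 0.0263 to 0.0471. Ogdh fell by 0.37 ± 0.13 and the others rose by 0.31 to 0.69. Each of these 6 calls was lost in 3 to 10 of the 12 fits that left out 1 array.

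The split of calls depended on the scaling: 10 rose and 6 fell after median centring, which moved the median of all genes to -0.20, against 15 and 0 after quantile normalization and 20 and 0 after cyclic loess. Without B220+ array 2 the calls numbered 9 and without array 1 they numbered 11.

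**Figure D1:**
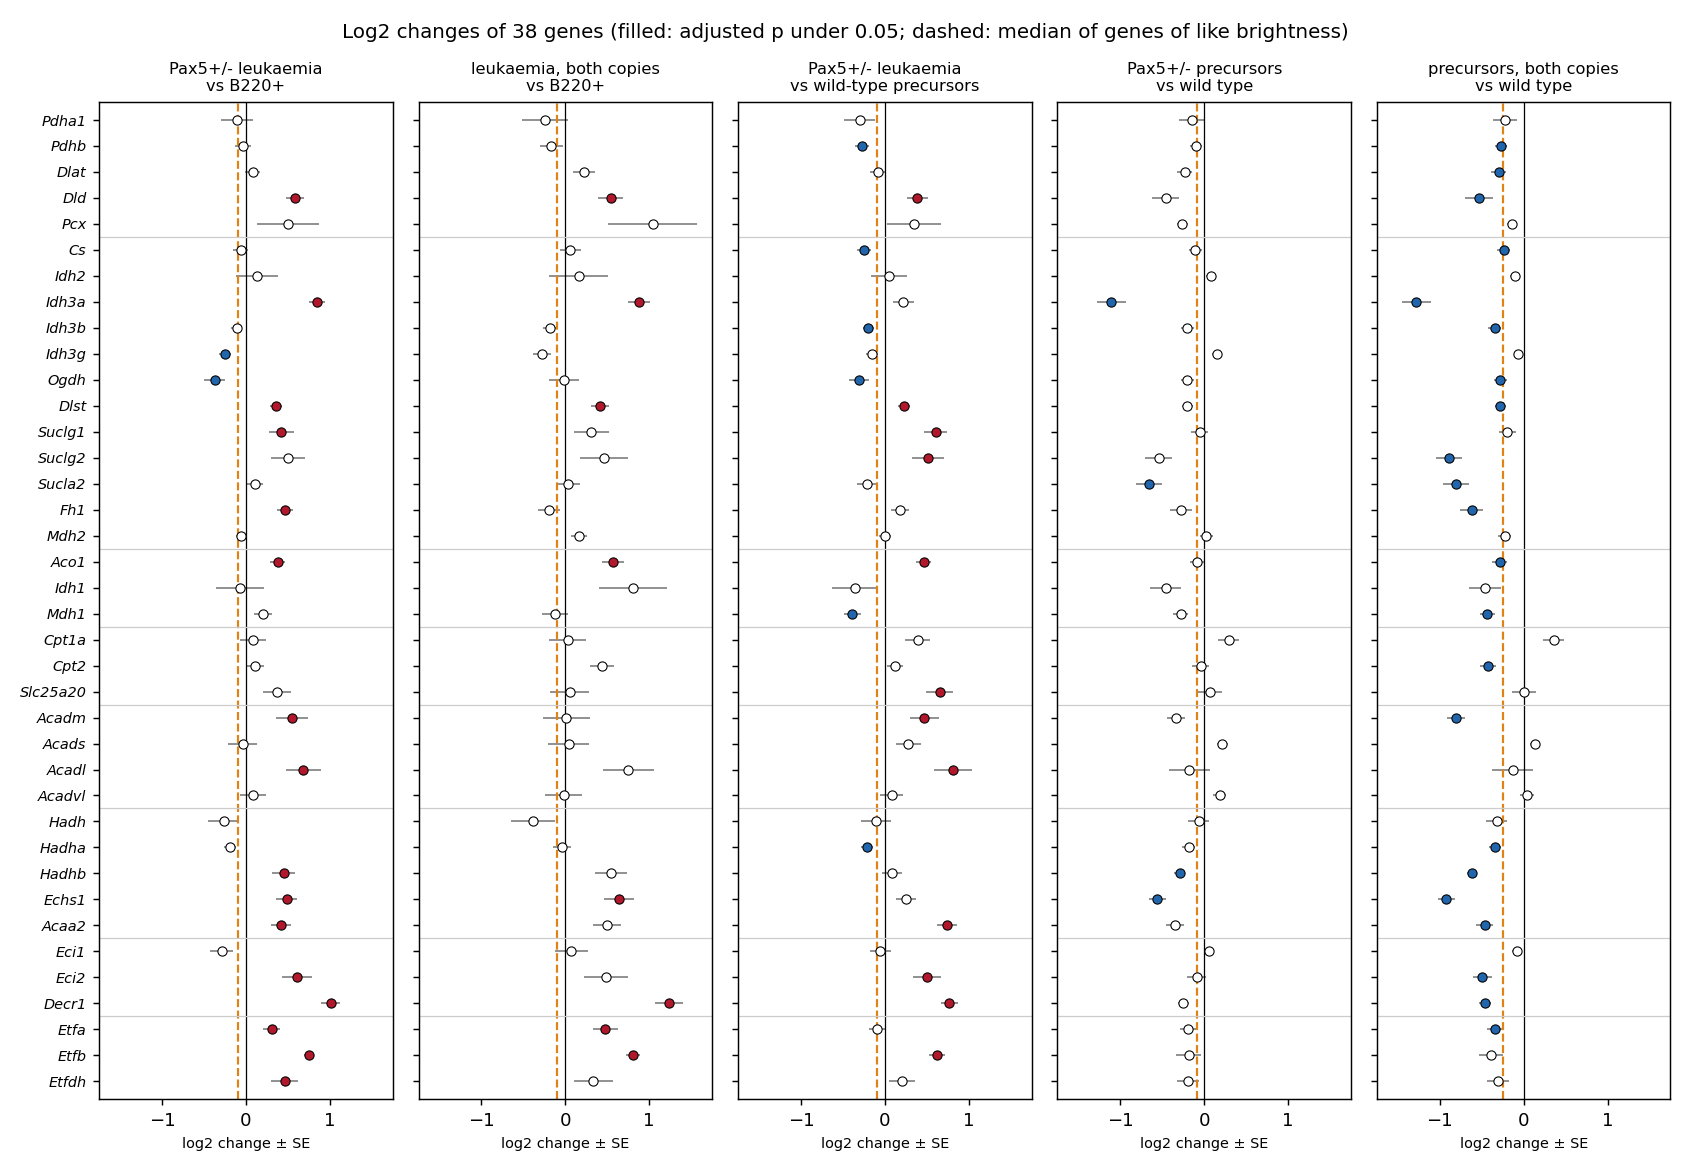
Log2 change ± SE of each of the 38 genes, grouped by role from pyruvate entry (top) to electron transfer (bottom), in 5 comparisons; red points rose and blue points fell by limma, open points did not pass, and the dashed line is the median of genes of like brightness. Decr1, Idh3a and Etfb stand to the right in both leukaemia panels set against B220+ cells, and Idh3a stands far to the left in both precursor panels.

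Markers of other cells moved with these changes. In Pax5+/- leukaemias against B220+ cells, 15 of 18 monocyte and macrophage markers rose and their mean per array was 7.40 to 10.01 in Pax5+/- leukaemias, against 6.45 to 6.87 in B220+ cells. Of 14 stromal and endothelial markers 12 rose, with means of 7.62 to 9.36 in the leukaemias and 6.59 to 6.72 in B220+ cells. Of 6 megakaryocyte markers 5 rose, with 7.66 to 10.84 in the leukaemias and 6.76 to 7.13 in B220+ cells, while 8 of 10 B lineage markers fell. Of 14 cell cycle genes 12 rose, with means of 10.56 to 11.01 in the leukaemias and 9.38 to 10.15 in B220+ cells. The part of these markers in the result was not tested. Leukaemia array 7 had the lowest macrophage, stromal and megakaryocyte means of the 7, all still above every B220+ array. It also had the highest mean of the 38 genes (9.89, where the 7 arrays spanned 9.53 to 9.89 and the B220+ arrays 9.31 to 9.55). This was 1 array, and whether marker means and the 38 genes go together across arrays was not tested. Erythroid means were 7.38 to 11.16 in the leukaemias and 8.03 to 8.35 in B220+ cells. Neutrophil means were 7.13 to 9.72 and 7.05 to 9.96, adipocyte means 6.45 to 7.48 and 6.43 to 6.52, and NK and T cell means 6.92 to 9.16 and 6.79 to 7.55. In bulk RNA a different share of cell types and a different level per cell cannot be told apart.

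Against wild-type precursors, a normal population whose cell cycle markers were higher than in B220+ cells, the Pax5+/- leukaemias had 12 of the 38 genes higher and 6 lower, where 12.7% of all genes rose and 19.6% fell. The median change was 0.15, beside -0.087 for genes of like brightness, of which 14.8% rose and 25.8% fell. In 10 of the 38 the groups did not overlap, where 22% of all genes and 31.1% of genes of like brightness did not. Fatty acid oxidation genes made up 6 of the rises, Decr1 (0.77 ± 0.10, adjusted p = 1.37e-05), Acaa2 (0.74 ± 0.12, adjusted p = 6.92e-05), Acadl (0.81 ± 0.23, adjusted p = 0.0102), the carnitine-acylcarnitine carrier Slc25a20 (0.65 ± 0.16, adjusted p = 0.00401), Eci2 (0.50 ± 0.17, adjusted p = 0.0256) and Acadm (0.47 ± 0.17, adjusted p = 0.044). Etfb (0.63 ± 0.094, adjusted p = 4.95e-05), Aco1 (0.46 ± 0.089, adjusted p = 0.00057), Suclg1 (0.61 ± 0.14, adjusted p = 0.00247) Dlst (0.23 ± 0.069, adjusted p = 0.0165), Dld (0.39 ± 0.13, adjusted p = 0.0261) and Suclg2 (0.51 ± 0.19, adjusted p = 0.0487) rose too. Cytosolic malate dehydrogenase Mdh1 fell by 0.39 ± 0.10 (adjusted p = 0.0074) and Pdhb by 0.27 ± 0.087 (adjusted p = 0.0219), and Hadha, Cs, Ogdh and Idh3b fell by 0.20 to 0.31. Idh3a did not pass here: it read 9.88 at the lowest, 10.13 at the median and 10.34 at the highest in Pax5+/- leukaemias, against 9.94, 9.86, 9.95 and 9.79 in wild-type precursors (0.22 ± 0.13, adjusted p = 0.185). The groups overlapped. Macrophage markers were higher here too (14 of 18 called) and 3 of 14 cell cycle genes were lower, and their part in the result was not tested. After median centring the split was 7 higher and 8 lower, after quantile normalization 13 and 2, after cyclic loess 17 and 1, and after centring on genes of like brightness 15 and 1. Without wild-type precursor array 3 the calls numbered 10 and without array 4 they numbered 11.

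**Figure D2:**
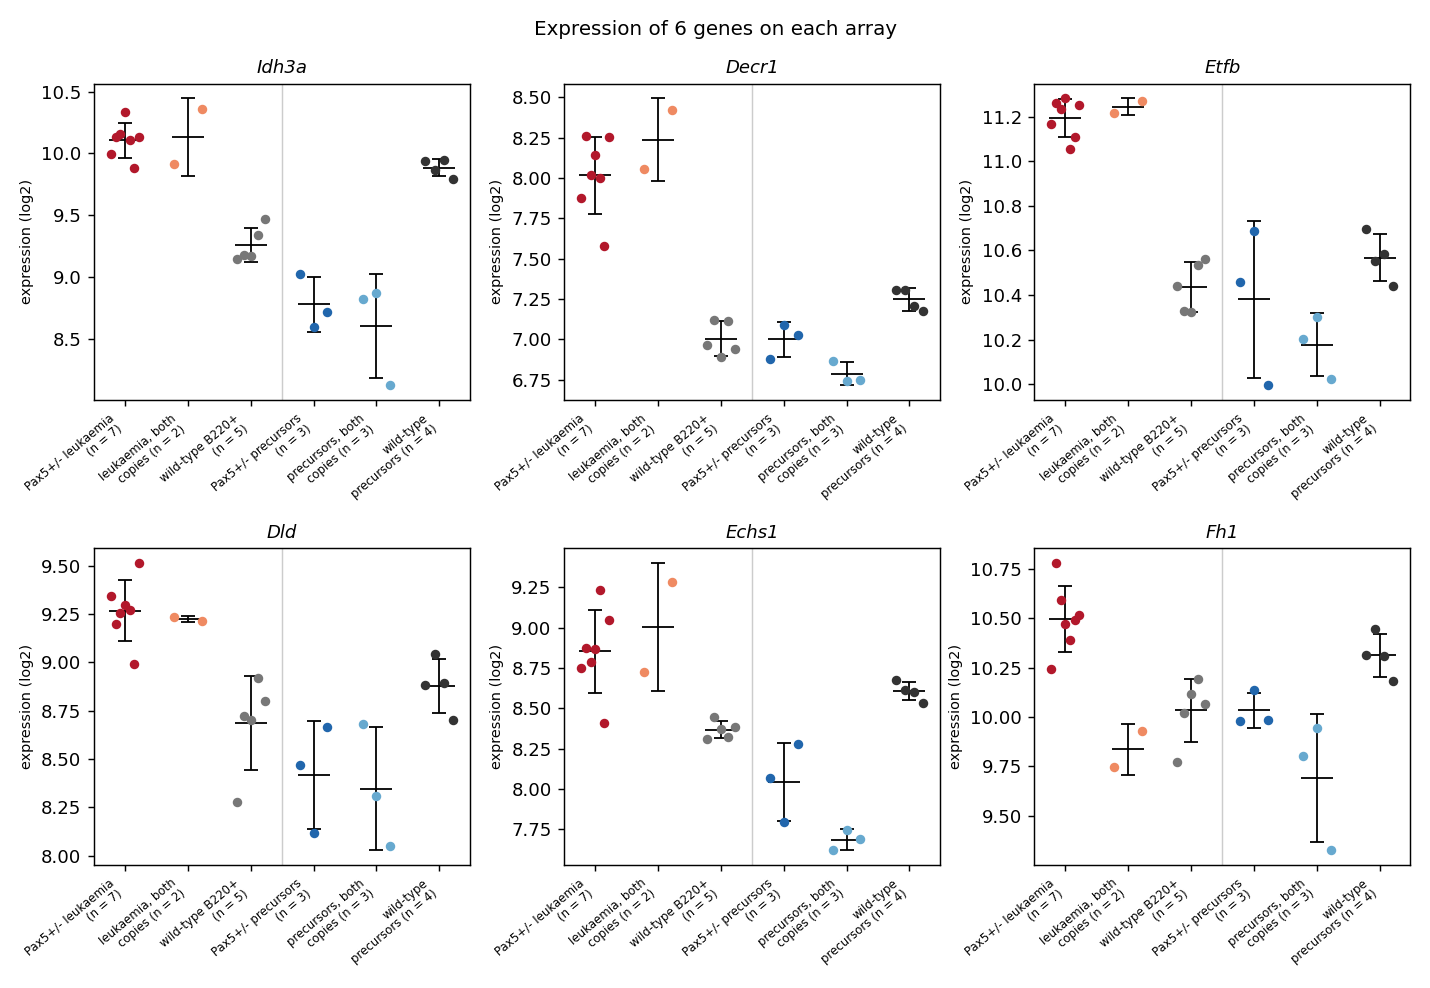
Log2 expression of 6 genes on each array, with the mean and SD of each group as bars; the vertical axis differs between panels. In Idh3a, Decr1 and Etfb all 9 leukaemia arrays lie above all 5 B220+ arrays, and in Idh3a the wild-type precursors lie beside the leukaemias.

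Leukaemias with both copies were set against the same B220+ cells. These groups differ in oncogene, disease and cell mix at once, and the part of each cannot be told apart. Of the 38 genes, 8 rose and 0 fell, where 9.48% of all genes rose and 11.9% fell. The median change was 0.19, beside -0.10 for genes of like brightness, of which 13.5% rose and 20.4% fell. With only 2 arrays, 19 of the 38 genes did not overlap between the groups. The share was 43.4% for all genes and 51% for genes of like brightness. Decr1 read 8.06 and 8.42 in these leukaemias, against 6.96, 7.12, 6.89, 7.11 and 6.94 in B220+ cells, a rise of 1.23 ± 0.16 (adjusted p = 0.000252). Etfb rose by 0.81 ± 0.084 (adjusted p = 4.66e-05) and Idh3a by 0.88 ± 0.13 (adjusted p = 0.000661). Aco1 (0.57 ± 0.13, adjusted p = 0.00779), Dlst (0.41 ± 0.10, adjusted p = 0.0141), Dld (0.54 ± 0.15, adjusted p = 0.023), Echs1 (0.64 ± 0.18, adjusted p = 0.0245) and Etfa (0.48 ± 0.15, adjusted p = 0.0354) made up the rest. Both leukaemia comparisons share the B220+ arrays, so the likeness of their changes is no independent evidence. Markers moved here too, with 10 of 18 macrophage, 9 of 15 neutrophil, 12 of 14 stromal and 12 of 14 cell cycle genes higher, and their part in the result was not tested. Erythroid markers averaged 12.20 on leukaemia array 1 and 8.65 on array 2, and their part was not tested either. Leaving out either leukaemia array leaves a group of 1, which is then assumed to vary like the others. In fits that left out 1 array of the groups compared, the rise ranged over 0.17 to 0.66 for Dlst and 0.78 to 0.84 for Etfb. After median centring 4 rose and 2 fell.

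Around these enzymes, 58 of 65 other listed genes of the same pathways were measured. In Pax5+/- leukaemias against B220+ cells 14 rose and 7 fell, where 12.9% of all genes rose and 18.9% fell. Among both-copies leukaemias 11 were higher and 3 lower, where 9.48% of all genes rose and 11.9% fell. Ppargc1a, a coactivator known for driving mitochondrial genes in energy-demanding tissue, averaged 5.55 ± 0.25 in Pax5+/- leukaemias (SD, n = 7) and 5.55 ± 0.054 in leukaemias with both copies (n = 2), against 7.33 ± 0.11 in B220+ cells (n = 5). It fell by 1.78 ± 0.11 in Pax5+/- leukaemias (adjusted p = 3.21e-07) and 1.78 ± 0.16 in those with both copies (adjusted p = 1.6e-05). Esrra, the nuclear receptor ERR alpha that Ppargc1a partners with, fell by 0.59 ± 0.054 in Pax5+/- leukaemias (adjusted p = 7.97e-06) and 0.50 ± 0.077 in those with both copies (adjusted p = 0.00068). The fatty acid activating enzyme Acsl5 rose by 0.90 ± 0.084 in Pax5+/- leukaemias (adjusted p = 8.54e-06) and 0.86 ± 0.12 in those with both copies (adjusted p = 0.000343), and pyruvate dehydrogenase kinase Pdk3, which restrains pyruvate dehydrogenase, rose by 1.16 ± 0.13 in Pax5+/- leukaemias (adjusted p = 2.68e-05) and 1.37 ± 0.18 in those with both copies (adjusted p = 0.000231).

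ERR alpha acts through the DNA element AAGGTCA, so promoter sequences of the 38 genes were searched for it on both strands, over the 250 bases before and 50 after the RefSeq start. Promoters were found for 35 of the 38 genes in the RefSeq table of GRCm38.p6, and Idh3a, Decr1 and Acaa2 were not matched. The element lay in 2 of the 35, Acadm and Ogdh, beside 4.72% of all 32851 promoters in the table. The ETS element CCGGAAG lay in 5 (Cpt2, Dlst, Idh3b, Idh3g and Slc25a20), beside 8.86% of all promoters, the E-box CACGTG in 2 (Ogdh and Pcx), beside 7.15%, and the element of NRF1, nuclear respiratory factor 1, in 1 (Etfdh), beside 0.971%. The 35 were counted by gene, each once if any of its promoters matched, and the background by promoter, so these shares are not in like units. No overlap between motifs was scored. Of the 2 genes with the ERR element, Acadm rose and Ogdh fell in Pax5+/- leukaemias against B220+ cells. In 12 fits that left out 1 array, the call was lost in 10 for Acadm and in 8 for Ogdh. Shown 5′ to 3′ on the gene's strand are 2 promoters. Acadm holds the ERR element, and Etfb, which had the smallest adjusted p in that comparison, holds none of the 4. Capitals mark the element, which reads on the reverse strand. Acadm lies at chr3:153944594-153944893 (minus strand) and Etfb at chr7:43443822-43444121 (plus strand), GRCm38.p6.
Acadm: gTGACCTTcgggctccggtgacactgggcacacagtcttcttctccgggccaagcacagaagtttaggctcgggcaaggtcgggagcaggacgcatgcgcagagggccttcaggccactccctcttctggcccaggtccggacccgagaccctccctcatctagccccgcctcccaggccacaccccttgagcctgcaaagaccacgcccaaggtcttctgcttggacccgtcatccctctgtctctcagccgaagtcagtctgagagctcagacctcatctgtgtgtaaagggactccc
Etfb: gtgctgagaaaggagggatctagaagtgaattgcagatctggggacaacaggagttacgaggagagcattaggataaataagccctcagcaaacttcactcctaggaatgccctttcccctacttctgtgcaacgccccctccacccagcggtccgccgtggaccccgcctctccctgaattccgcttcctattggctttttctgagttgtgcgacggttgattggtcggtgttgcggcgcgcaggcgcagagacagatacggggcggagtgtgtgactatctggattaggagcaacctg
A match is a description of these letters alone.

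Before leukaemia the calls lay in the other direction. In precursors with both copies against wild-type precursors, 22 of the 38 genes fell and 0 rose, where 15.5% of all genes fell and 11.6% rose. Among genes of like brightness, however, 31.7% fell and 3.35% rose, with a median of -0.24 beside -0.32 for the 38, and 25 of the 38 lay below that median. The upper quartile of all genes was lower on these arrays, 8.59 to 8.77 in precursors with both copies, against 8.89 to 8.98 in wild-type precursors.

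Idh3a moved most. It read 8.82, 8.87 and 8.12 in precursors with both copies, against 9.94, 9.86, 9.95 and 9.79 in wild-type precursors, and fell by 1.28 ± 0.17 or to 0.411 of the wild-type level (adjusted p = 0.00315). The highest of the 3 arrays was well below the lowest wild-type array. Among the other cycle enzymes, Suclg2 read 7.85, 7.61 and 7.44 in precursors with both copies, against 8.45, 8.68, 8.48 and 8.49 in wild type, and the ATP-forming beta subunit Sucla2 read 8.86, 8.72 and 8.61 in precursors with both copies, against 9.49, 9.70, 9.54 and 9.43 in wild type. Suclg2 fell by 0.89 ± 0.16 (adjusted p = 0.00639) and Sucla2 by 0.81 ± 0.15 (adjusted p = 0.00797), whereas Suclg1, their common alpha subunit, had -0.20 ± 0.10 (adjusted p = 0.169). A second probe set for Suclg2 differed by -0.77. Fh1 read 9.81, 9.95 and 9.33 in precursors with both copies, against 10.31, 10.45, 10.31 and 10.18 in wild type, a fall of 0.62 ± 0.13 (adjusted p = 0.0115). Cytosolic Mdh1 read 10.88, 10.77 and 10.63 in precursors with both copies, against 11.22, 11.34, 11.16 and 11.07 in wild type (-0.43 ± 0.091, adjusted p = 0.0106). Idh3a, Suclg2, Sucla2, Fh1 and Mdh1 did not overlap between the groups, and Suclg1 did.

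In fatty acid oxidation, Echs1, which hydrates the double bond made in the first step, read 7.62, 7.75 and 7.69 in precursors with both copies, against 8.67, 8.61, 8.60 and 8.53 in wild type, and fell by 0.92 ± 0.10 (adjusted p = 0.00234). Hadhb read 8.76, 8.75 and 8.79 in precursors with both copies, against 9.38, 9.48, 9.33 and 9.33 in wild type, and fell by 0.62 ± 0.061 (adjusted p = 0.00234). Acadm, the dehydrogenase of medium chains, read 9.23, 9.35 and 8.96 in precursors with both copies, against 10.03, 10.06, 9.95 and 9.89 in wild type, and fell by 0.80 ± 0.11 (adjusted p = 0.00315). In all 3 genes every array lay below every wild-type array. Decr1 read 6.87, 6.74 and 6.75 in precursors with both copies, against 7.31, 7.31, 7.20 and 7.17 in wild type (-0.46 ± 0.069, adjusted p = 0.00392). Acaa2 read 9.28, 9.26 and 9.01 in precursors with both copies, against 9.75, 9.75, 9.60 and 9.50 in wild type (-0.47 ± 0.10, adjusted p = 0.013). Cpt2, the inner carnitine acyltransferase, read 8.03, 8.21 and 7.80 in precursors with both copies, against 8.47, 8.40, 8.47 and 8.42 in wild type (-0.43 ± 0.10, adjusted p = 0.0137). Its outer counterpart Cpt1a went the other way without passing, 10.84, 10.37 and 10.68 in precursors with both copies against 10.26, 10.25, 10.49 and 10.07 in wild type (0.36 ± 0.12, adjusted p = 0.0566). Hadha read 10.58, 10.34 and 10.29 in precursors with both copies, against 10.70, 10.80, 10.74 and 10.73 in wild type (-0.34 ± 0.077, adjusted p = 0.0135).

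The other 10 called genes fell by 0.24 to 0.53 with adjusted p from 0.0143 to 0.0484, and Dld and Eci2 had the largest of these changes. In 7 fits that left out 1 array, Cs, Dlat and Aco1 lost the call in 6. Dld, Ogdh and Etfa lost it in 5, Pdhb in 4, Idh3b in 1, and Dlst and Eci2 in 0. Under the 11 other settings that kept all arrays, these genes were called in 2 (Cs) to 8 (Idh3b). Dld read 8.68, 8.31 and 8.05 in precursors with both copies, against 8.88, 9.04, 8.89 and 8.70 in wild type, and the lowest wild-type array was close to the highest of the other group. Eci2 read 7.98, 8.30 and 8.26 in precursors with both copies, against 8.60, 8.74, 8.60 and 8.73 in wild type. Idh3b read 10.83, 10.85 and 10.62 in precursors with both copies, against 11.07, 11.10, 11.17 and 11.12 in wild type. All 3 values of Idh3b lay under the 4 wild-type values. Etfa read 9.21, 8.88 and 8.84 in precursors with both copies, against 9.29, 9.43, 9.32 and 9.24 in wild type. Dlat, the transacetylase core of pyruvate dehydrogenase, read 8.79, 8.45 and 8.64 in precursors with both copies, against 8.91, 8.84, 9.04 and 8.91 in wild type. Aco1 read 8.63, 8.42 and 8.35 in precursors with both copies, against 8.85, 8.65, 8.72 and 8.79 in wild type. In Etfa, Dlat and Aco1 the groups lay close to each other. Dlst read 9.71, 9.68 and 9.46 in precursors with both copies, against 9.87, 9.86, 9.92 and 9.93 in wild type. Ogdh read 10.39, 10.25 and 10.23 in precursors with both copies, against 10.66, 10.46, 10.57 and 10.60 in wild type. Both belong to the 2-oxoglutarate dehydrogenase complex. Pdhb read 8.45, 8.40 and 8.31 in precursors with both copies, against 8.59, 8.68, 8.72 and 8.64 in wild type. Cs read 10.81, 11.14 and 11.03 in precursors with both copies, against 11.26, 11.16, 11.24 and 11.26 in wild type. Of the 38, 27 did not overlap between the groups, where 42.2% of all genes and 53.6% of genes of like brightness did not. The 16 genes that did not pass had changes from -0.46 (Idh1) to 0.36 (Cpt1a).

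Scaling and single arrays bear on this count. After quantile normalization 3 of the 38 rose and 9 fell, after cyclic loess 3 and 8, and after centring on genes of like brightness 3 and 6. Idh3a, Suclg2, Sucla2, Acadm, Hadhb and Echs1 were called under every one of the 11 other settings that kept all arrays. Without array 3 of the precursors with both copies, 12 genes were called. Cell cycle markers were lower in the same arrays (8 of 14 fell), with means of 9.74 to 10.59 in precursors with both copies and 11.16 to 11.31 in wild type. NK and T cell markers (7 of 12 fell) averaged 6.69 to 7.51 in precursors with both copies and 7.82 to 8.26 in wild type, and their part in the result was not tested. Sex and genotype cannot be told apart in this comparison.

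**Figure D3:**
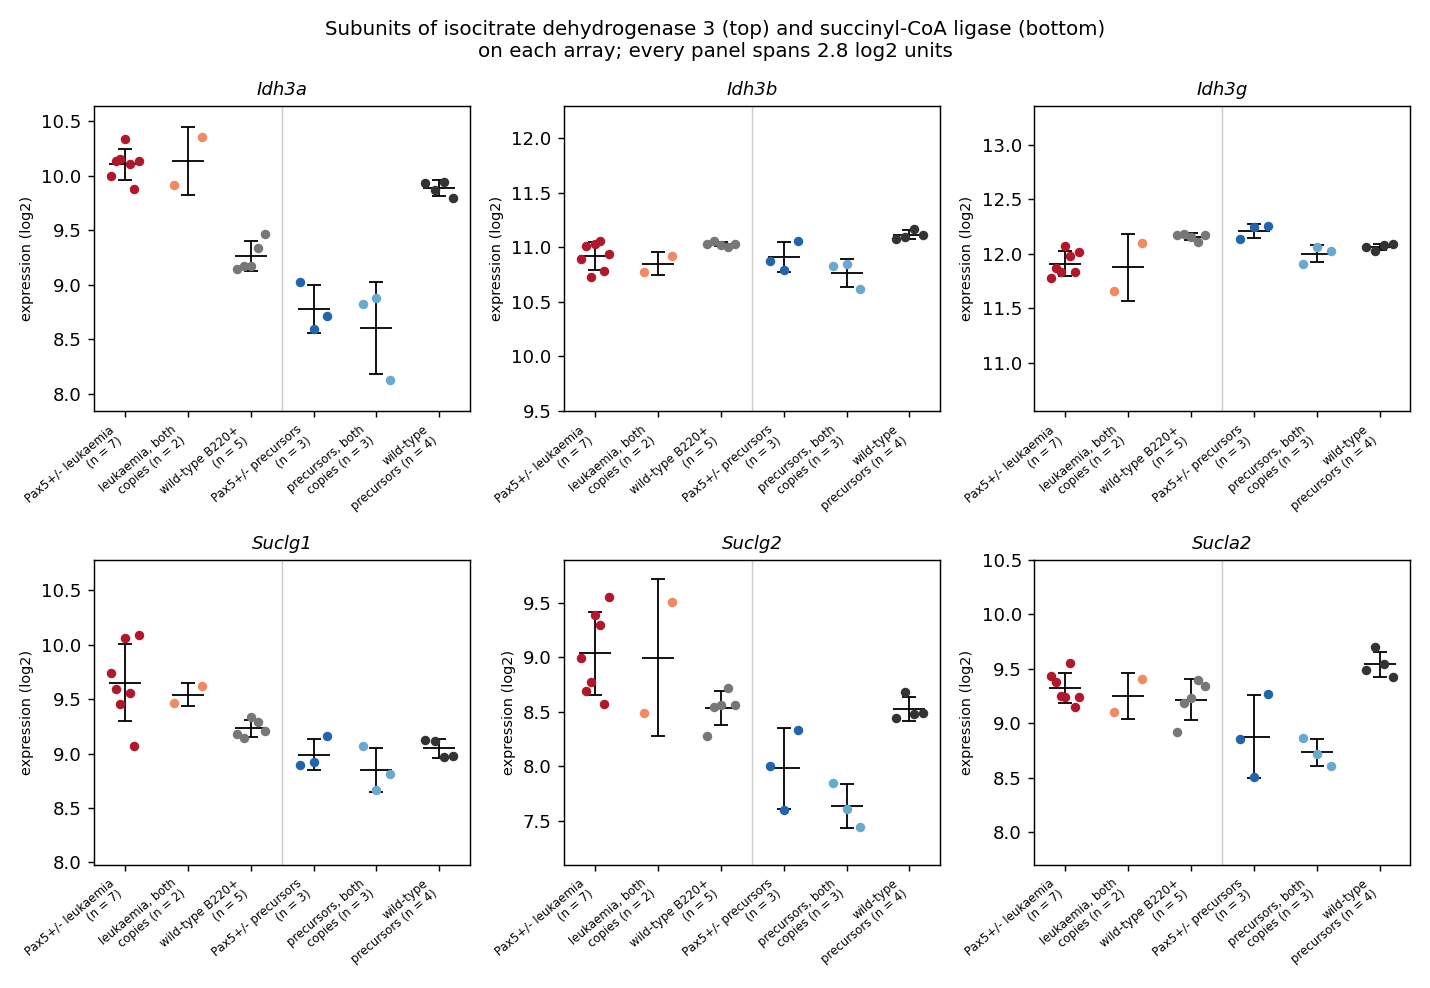
Log2 expression of the subunits of isocitrate dehydrogenase 3 (top row) and succinyl-CoA ligase (bottom row) on each array, with group means and SD as bars; every panel spans the same range of log2 units. Idh3a varies from 8.12 to 10.36 across arrays while Idh3b and Idh3g stay within 10.62 to 11.17 and 11.66 to 12.25. The group means of the beta subunits Suclg2 and Sucla2 are lowest in the oncogene-bearing precursors, though single arrays overlap with other groups.

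The Pax5+/- precursors, set against the same wild-type arrays, had 4 of the 38 genes lower and 0 higher, where 2.94% of all genes fell and 1.23% rose, and 4.13% of genes of like brightness fell. The median change was -0.19, beside -0.090 for genes of like brightness, and 21 of the 38 had an unadjusted p under 0.05, as did 23.2% of all genes and 33% of genes of like brightness. In 19 of the 38 the groups did not overlap, where 24.3% of all genes and 29.9% of genes of like brightness did not. Idh3a read 9.03, 8.59 and 8.72 in Pax5+/- precursors, against 9.94, 9.86, 9.95 and 9.79 in wild-type precursors. No array overlapped, and Idh3a fell by 1.11 ± 0.17 or to 0.464 of the wild-type level (adjusted p = 0.0165). Echs1 read 8.06, 7.79 and 8.28 in Pax5+/- precursors, against 8.67, 8.61, 8.60 and 8.53 in wild type, and fell by 0.56 ± 0.10 (adjusted p = 0.0235). Hadhb read 9.18, 9.0 and 9.08 in Pax5+/- precursors, against 9.38, 9.48, 9.33 and 9.33 in wild type, and fell by 0.29 ± 0.061 (adjusted p = 0.0341). Sucla2 read 8.85, 8.51 and 9.27 in Pax5+/- precursors, against 9.49, 9.70, 9.54 and 9.43 in wild type, and fell by 0.66 ± 0.15 (adjusted p = 0.0465). Its 3 arrays were spread widely, though all below wild type. Of genes that did not pass, short-chain dehydrogenase Acads was higher on every array (0.21 ± 0.065, adjusted p = 0.0898), as was Idh3g (0.15 ± 0.057, adjusted p = 0.16). These calls rested on few arrays: 0 were left without wild-type array 1, 2 or 3, 2 without Pax5+/- array 1 or 2, and Idh3a then had adjusted p of up to 0.0623. After quantile normalization 1 rose and 4 fell, and after centring on genes of like brightness 2 rose and 3 fell. Cell cycle markers averaged 9.49 to 10.79 in Pax5+/- precursors, against 11.16 to 11.31 in wild type, with 0 of 14 called. NK and T cell markers averaged 6.90 to 7.59 in Pax5+/- precursors, against 7.82 to 8.26 in wild type (3 of 12 fell), and erythroid markers 8.0 to 8.16 in Pax5+/- precursors, against 8.59 to 8.91 in wild type (1 of 9 fell). The part of these markers in the result was not tested. The precursor comparisons share their wild-type arrays.

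Among the other pathway genes, 3 of 58 rose and 22 fell in precursors with both copies, where 15.5% of all genes and 31.7% of genes of like brightness fell. In Pax5+/- precursors 4 of 58 fell, where 2.94% of all genes and 4.13% of genes of like brightness did. Mitochondrial malic enzyme Me2 fell by 1.17 ± 0.16 in precursors with both copies (adjusted p = 0.00315) and 0.81 ± 0.16 in Pax5+/- precursors (adjusted p = 0.0282), and Pdk3 by 0.98 ± 0.16 in precursors with both copies (adjusted p = 0.0046) and 0.71 ± 0.16 in Pax5+/- precursors (adjusted p = 0.039). Lias, which makes the lipoyl cofactor of the 2-oxoacid dehydrogenases, fell in precursors with both copies by 0.76 ± 0.12 (adjusted p = 0.00442), and the aspartate-glutamate carrier Slc25a12 by 0.51 ± 0.081 (adjusted p = 0.00479). In Pax5+/- precursors the fatty acid transporter Cd36 fell by 1.64 ± 0.35 (adjusted p = 0.0374) and the branched-chain dehydrogenase Acadsb by 0.54 ± 0.12 (adjusted p = 0.0392).

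The direct question of what the lost Pax5 copy changes was put at each stage. Between the leukaemias, 1 of the 38 genes was higher in Pax5+/- leukaemias and 0 were lower, where 0.712% of all genes were higher and 1.16% lower. Fh1 read 10.24 at the lowest, 10.49 at the median and 10.78 at the highest in Pax5+/- leukaemias, against 9.75 and 9.93 in leukaemias with both copies. All 7 arrays lay above both others, and the difference was 0.66 ± 0.13 or 1.58-fold (adjusted p = 0.0177). It was lost with array weights (adjusted p = 0.195), with a replicate block (0.126), with these arrays fitted alone (0.0914) and with array 1 of the both-copies leukaemias left out (0.187), where the lone remaining array was assumed to vary like the others. Cytosolic isocitrate dehydrogenase Idh1 read 7.56 at the lowest, 9.08 at the median and 9.36 at the highest in Pax5+/- leukaemias, against 9.74 and 9.60 in leukaemias with both copies. Both of these lay above all 7 Pax5+/- arrays, yet the difference of -0.87 ± 0.39 did not pass (adjusted p = 0.335), and 5 of the 38 had an unadjusted p under 0.05, as did 13.9% of all genes. In 3 of the 38 (Fh1, Mdh2 and Idh1) the groups did not overlap, where 8.54% of all genes did not. The median difference was -0.039, beside 0.0020 for genes of like brightness, and neutrophil markers averaged 7.13 to 9.72 in Pax5+/- leukaemias, against 11.48 and 12.09 in leukaemias with both copies.

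Between the oncogene-bearing precursors 0 of the 38 genes were called by limma, where 0.015% of all genes were higher and 0.01% lower, and 11 of the 38 had an unadjusted p under 0.05, as did 2849 of all 19938 genes and 21.8% of genes of like brightness. With array weights 1 of the 38 was called. With the replicate number as a block 0 of all genes were called, where 5 of all genes were called without it. The median difference was 0.15, higher in Pax5+/- precursors, beside 0.16 for genes of like brightness, and it turned to -0.0058 after centring on those genes. Hadhb had the smallest adjusted p: it read 9.18, 9.0 and 9.08 in Pax5+/- precursors, against 8.76, 8.75 and 8.79 in precursors with both copies (0.32 ± 0.066, adjusted p = 0.149). Acadm read 9.60, 9.49 and 9.84 in Pax5+/- precursors, against 9.23, 9.35 and 8.96 in precursors with both copies (0.46 ± 0.12, adjusted p = 0.177). Neither gene overlapped between the groups, and 11 of the 38 did not, where 16.5% of all genes did not. The difference between the stages in the effect of the Pax5 copy was tested on all arrays, and 0 of the 38 were called, where 0.692% of all genes were called. In that test 8 of the 38 had an unadjusted p under 0.05, as did 13.1% of all genes and 17.7% of genes of like brightness, and the smallest adjusted p was that of Cpt2 (-0.71 ± 0.18, adjusted p = 0.0776).

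**Figure D4:**
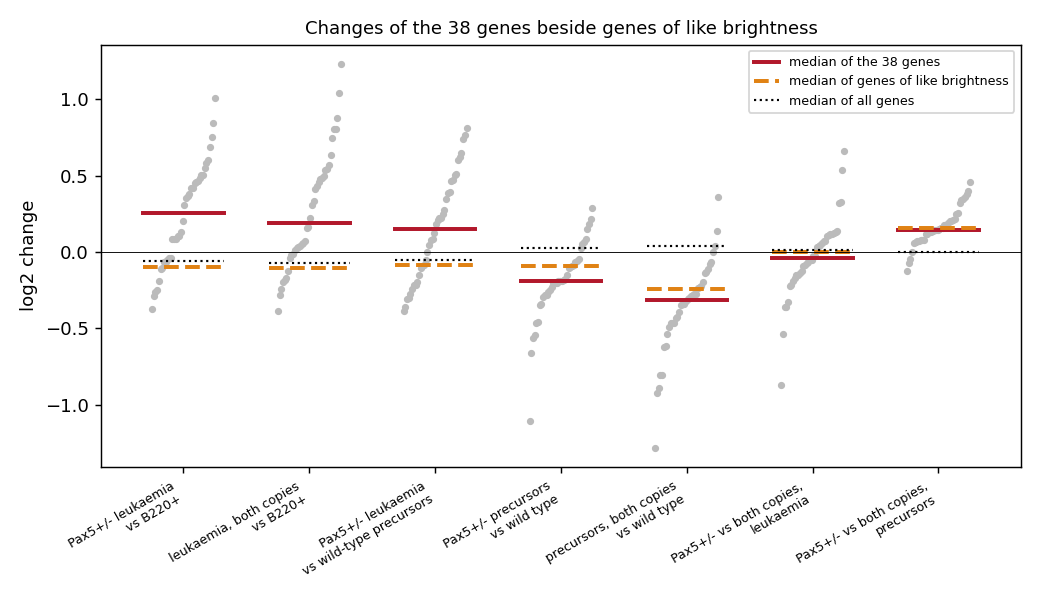
Log2 changes of the 38 genes (grey points, sorted) in 7 comparisons, with their median (solid), that of genes of like brightness (dashed) and that of all genes (dotted). In the 3 comparisons of leukaemias with normal cells the median of the 38 lies above the other medians, and in both precursor comparisons with wild type it lies below that of genes of like brightness.

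Within each genotype, leukaemic marrow was set against preleukaemic precursors, whose B lineage markers differed as given above. These groups differ in disease stage and cell mix at once, and the part of each cannot be told apart. In leukaemias with both copies against precursors with both copies 21 of the 38 genes rose and 0 fell, where 18.1% of all genes rose and 27.6% fell. The median change was 0.43, beside 0.19 for genes of like brightness, of which 30.7% rose, and -0.078 for all genes. In 21 of the 38 the groups did not overlap, where 61.6% of all genes did not. Of 12 cycle enzymes 6 rose, and of 5 hydratases, dehydrogenases and thiolases 4 rose.

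Decr1 read 8.06 and 8.42 in leukaemias with both copies, against 6.87, 6.74 and 6.75 in the precursors, a rise of 1.45 ± 0.15 or 2.74-fold (adjusted p = 1.23e-06). Idh3a read 9.91 and 10.36 in the leukaemias, against 8.82, 8.87 and 8.12 in the precursors, a rise of 1.53 ± 0.18 or 2.89-fold (adjusted p = 5.35e-06). These were the largest gaps beside Suclg2. Etfb read 11.22 and 11.27 in the leukaemias, against 10.20, 10.30 and 10.02 in the precursors (1.07 ± 0.14, adjusted p = 1.25e-05). Acaa2 read 10.62 and 10.31 in the leukaemias, against 9.28, 9.26 and 9.01 in the precursors (1.28 ± 0.17, adjusted p = 1.51e-05). Echs1 read 8.72 and 9.29 in the leukaemias, against 7.62, 7.75 and 7.69 in the precursors (1.32 ± 0.17, adjusted p = 1.75e-05). All 5 genes were more than a log2 unit higher in the leukaemias. Aco1 read 9.55 and 9.26 in the leukaemias, against 8.63, 8.42 and 8.35 in the precursors (0.94 ± 0.13, adjusted p = 2.7e-05). Cpt2 read 9.15 and 8.63 in the leukaemias, against 8.03, 8.21 and 7.80 in the precursors (0.87 ± 0.15, adjusted p = 0.000163). Suclg2 read 8.49 and 9.51 in the leukaemias, against 7.85, 7.61 and 7.44 in the precursors (1.36 ± 0.28, adjusted p = 0.000941). Its leukaemia arrays lay a log2 unit apart from each other.

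The remaining called genes also rose. Dlst read 10.42 and 9.93 in the leukaemias, against 9.71, 9.68 and 9.46 in the precursors. Dld read 9.24 and 9.21 in the leukaemias, against 8.68, 8.31 and 8.05 in the precursors. The rise was 0.56 ± 0.10 for Dlst (adjusted p = 0.000282) and 0.88 ± 0.19 for Dld (adjusted p = 0.00111). Hadhb read 9.54 and 9.58 in the leukaemias, against 8.76, 8.75 and 8.79 in the precursors. Mdh2 read 11.86 and 11.81 in the leukaemias, against 11.31, 11.58 and 11.29 in the precursors. The rise was 0.79 ± 0.17 for Hadhb (adjusted p = 0.00129) and 0.44 ± 0.10 for Mdh2 (adjusted p = 0.00232), and in these 4 genes the groups did not overlap. The other 9 called genes rose by 0.27 to 1.00 with adjusted p from 0.00692 to 0.0447. Eci2 read 9.10 and 9.0 in the leukaemias, against 7.98, 8.30 and 8.26 in the precursors. Acadm read 9.59 and 10.24 in the leukaemias, against 9.23, 9.35 and 8.96 in the precursors. Acadl read 10.38 and 9.88 in the leukaemias, against 9.60, 9.26 and 8.52 in the precursors. In Acadl the precursor arrays were spread over a log2 unit. Suclg1 read 9.47 and 9.62 in the leukaemias, against 9.07, 8.67 and 8.81 in the precursors. Sucla2 read 9.10 and 9.40 in the leukaemias, against 8.86, 8.72 and 8.61 in the precursors. Both subunits of the ATP-forming ligase were thus higher. Etfa read 9.62 and 9.18 in the leukaemias, against 9.21, 8.88 and 8.84 in the precursors. Hadha read 10.86 and 10.49 in the leukaemias, against 10.58, 10.34 and 10.29 in the precursors. Etfa and Hadha were the only genes of the 21 whose groups overlapped. Dlat read 8.98 and 8.97 in the leukaemias, against 8.79, 8.45 and 8.64 in the precursors. Idh1 read 9.74 and 9.60 in the leukaemias, against 8.92, 8.67 and 8.49 in the precursors. Fitted on these arrays alone, 10 genes were called, and with array weights 11. Quantile normalization and centring on genes of like brightness each gave 12 higher and 2 lower. Of 18 macrophage markers 12 and of 15 neutrophil markers 8 were higher in these leukaemias, and their part in the result was not tested.

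In Pax5+/- leukaemias against Pax5+/- precursors 17 of the 38 genes rose and 1 fell, where 16.4% of all genes rose and 28.4% fell. The median change was 0.27, beside 0.014 for genes of like brightness, of which 23.8% rose and 23.3% fell, and 14 of the 38 did not overlap between the groups, where 32.5% of all genes did not. Idh3a rose by 1.33 ± 0.14 or 2.51-fold (adjusted p = 5.94e-07), Decr1 by 1.02 ± 0.11 (adjusted p = 1.4e-06) and Acaa2 by 1.09 ± 0.13 (adjusted p = 2.38e-06), all without overlap. Etfb (0.81 ± 0.10), Echs1 (0.81 ± 0.13), Dld (0.85 ± 0.14), Dlst (0.43 ± 0.076), Aco1 (0.54 ± 0.10), Suclg2 (1.06 ± 0.21), Suclg1 (0.66 ± 0.15) and Acadm (0.81 ± 0.19) rose with adjusted p from 7.06e-06 to 0.00233. Idh3g fell by 0.30 ± 0.074 (adjusted p = 0.00314), so the alpha and gamma subunits of isocitrate dehydrogenase 3 moved in opposite directions. They did so against B220+ cells too, where the call of Idh3g did not hold in every setting and the leukaemia arrays were the same. The other 6 rises were of 0.38 to 0.99, and the 20 genes that did not pass had changes from -0.17 (Pdhb) to 0.61 (Pcx). After median centring 16 rose and 3 fell. Macrophage markers were higher in these leukaemias too, 16 of 18 called, and their part in the result was not tested.

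Between the normal populations, B220+ cells against wild-type precursors, 0 of the 38 genes rose and 3 fell, where 4.57% of all genes rose and 4.26% fell. The 3 were Mdh1 (-0.59 ± 0.11, adjusted p = 0.00146), Idh3a (-0.63 ± 0.13, adjusted p = 0.00432) and Etfa (-0.40 ± 0.11, adjusted p = 0.022). Idh3a read 9.15, 9.17, 9.17, 9.34 and 9.47 in B220+ cells, against 9.94, 9.86, 9.95 and 9.79 in wild-type precursors. Of the 38, 17 did not overlap between these groups, where 22.5% of all genes and 41% of genes of like brightness did not. Idh3a was among them, so the size of a change of Idh3a depended on which of them it was set against. The median change was -0.093, beside 0.025 for genes of like brightness, of which 9.29% rose and 8.14% fell. Cell cycle markers averaged 9.38 to 10.15 in B220+ cells, against 11.16 to 11.31 in wild-type precursors (14 of 14 fell). NK and T cell markers averaged 6.79 to 7.55 in B220+ cells, against 7.82 to 8.26 in wild-type precursors (1 of 12 fell), and erythroid markers 8.03 to 8.35 in B220+ cells, against 8.59 to 8.91 in wild-type precursors (1 of 9 fell). The part of these markers in the result was not tested. Fitted on these arrays alone or with array weights, 16 genes were called, 5 higher and 11 lower.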

How the data were processed

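RNA of 24 mouse samples was hybridised to Affymetrix arrays, 1 array a sample. The deposited values are log2 expression per probe set, made by RMA with oligo per the submitters' processing notes. The sources used here give no tool version and do not say whether all arrays were normalized together. The 35556 probe sets spanned 3.80 to 14.31. Of these, 21789 carried 1 gene symbol, 1621 several and 12146 none in the platform annotation, and the brightest probe set stood for each of 19938 genes. Array correlations ran from 0.906 to 0.995 and 0 pairs were identical.

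Models were fitted in limma 3.58.1 (R 4.3.3) with lmFit and eBayes on the deposited values, the leukaemia and precursor sets each on their own arrays, and comparisons across the sets on all 24. P-values were adjusted by Benjamini-Hochberg over all genes. The fit was tested on simulated data. The members and lists were chosen with earlier results of these data known. In each comparison, members past the test were named, up to 12 by smallest adjusted p. Alternatives were median centring, quantile normalization, cyclic loess, array weights, an intensity trend, a filter on dim genes, the mean of probe sets, a replicate block, other array sets and leaving out each array. Centring on genes of like brightness was added after seeing the data. Replicate numbers are the labels' own. Deviations of same-numbered Pax5+/- and both-copies precursors correlated at 0.208, 0.213 and 0.25, while unlike numbers of other groups reached 0.441. The 2 pairs of both-copies leukaemias and precursors had 0.167 and 0.183, and in the other group pairs not every correlation was over 0.1.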

Additional observations from a re-analysis of the deposited data

Results flagged for a closer look

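Of 114 tests for a single array apart from the rest of its group, run on the 38 genes in groups of 4 to 10 arrays, 5 found one, and chance gives about 1 in 20. Pdhb read 7.97 on array 6 of the Pax5+/- leukaemias, below the other arrays at 8.31 to 8.57. Slc25a20 read 7.81 on array 1 of the B220+ cells, below the others at 8.40 to 8.56. Among wild-type precursors, Idh1 read 9.30 on array 2, above the others at 9.11 to 9.12, Eci1 read 8.90 on array 3, above 8.76 to 8.78, and Hadh read 10.58 on array 1, below 10.62 to 10.63.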

How the results depend on the processing

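With a replicate block, 11 of the 38 genes were called in Pax5+/- leukaemias against B220+ cells (10 higher), 0 between the leukaemias, 1 in Pax5+/- precursors against wild type and 5 in B220+ cells against wild-type precursors, and in no other comparison did the block move the count by over 1.5 times. Array weights gave 4 calls for both-copies leukaemias and B220+ cells, 0 between the leukaemias, 18 in Pax5+/- precursors against wild type (2 higher, 16 lower), 1 between the oncogene-bearing precursors, 11 in both-copies leukaemias against their precursors and 16 between the normal populations. With the arrays of each comparison fitted alone the counts were 0 between the leukaemias, 10 in both-copies leukaemias against their precursors, 11 in Pax5+/- leukaemias against wild-type precursors and 16 between the normal populations. Cyclic loess gave 13 for both-copies leukaemias and B220+ cells, 11 in both-copies precursors against wild type and 5 between the normal populations. For Pax5+/- precursors against wild type, median centring and a fit on all 24 arrays gave 2 each. In both-copies precursors set against wild type, quantile normalization gave 12 and centring on genes of like brightness 9, and that centring gave 5 between the normal populations. In the same precursors Pdhb turned to 0.0015 under quantile normalization, and under that centring Pdhb turned to 0.0049, Cs to 0.041 and Ogdh to 0.0002. Leaving out each array in turn gave 9 to 19 calls in Pax5+/- leukaemias against B220+ cells, 4 to 10 in both-copies leukaemias, 0 to 3 between the leukaemias (3 without array 2 of those with both copies), 0 to 6 and 12 to 22 in Pax5+/- and both-copies precursors against wild type, 0 to 1 between these precursors (1 without Pax5+/- array 2), 15 to 19 and 14 to 21 in Pax5+/- and both-copies leukaemias against their precursors, 10 to 19 in Pax5+/- leukaemias against wild-type precursors, 2 to 3 between the normal populations and 0 to 3 for the difference between stages (1 without Pax5+/- leukaemia array 2, 3 without array 2 of the both-copies leukaemias). Fits that left out an array of the both-copies leukaemias had 1 array in that group, which was assumed to vary like the others. The causes were not tested. Signal over background was not given, so what dim signal limits was not assessed.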

Other observations

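Among Pax5+/- leukaemias the SD was 0.75 for Pcx and 0.68 for Idh1, with Pcx at 8.56 on array 7, where the median array read 6.73.

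Pyruvate dehydrogenase kinases, which were not among the 38, moved unlike each other in Pax5+/- leukaemias against wild-type precursors by limma with Benjamini-Hochberg adjustment. Pdk1 rose by 1.56 ± 0.18 (adjusted p = 2.48e-06) and Pdk3 by 0.87 ± 0.14 (adjusted p = 7.81e-05), while Pdk2 fell by 1.71 ± 0.22 (adjusted p = 1.04e-05). Ppargc1a fell by 1.57 ± 0.10 (adjusted p = 2.26e-09).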
